A study of Homo sapiens with 6 samples.

Results

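The genes described here are 10 heat shock protein genes (HSP90AA1, HSP90AB1, HSPA8, HSPA1A, HSPA1B, HSPH1, DNAJB1, HSPB1, HSPD1 and HSPE1), out of 26485 gene symbols in the expression tables. They were matched by symbol, and all 10 passed the filter on low values that 14195 genes passed. They were selected on TPM values of these same 6 libraries, with no threshold stated, so their levels and differences are given as a description, without a test. The grouping was labelled as cytosolic. That holds for 8 of them, but HSPD1 and HSPE1 encode the chaperonin and co-chaperonin of the mitochondrial matrix.

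Heat shock proteins are chaperones that bind unfolded or immature proteins and help them fold, assemble or reach degradation. HSP90 matures kinases, receptors and other clients. HSP70 binds exposed hydrophobic stretches under the control of J-domain proteins and nucleotide exchange factors, and small heat shock proteins hold aggregation-prone proteins until HSP70 takes them over. Many of these genes are induced by the transcription factor HSF1 under protein stress, and cancer cells commonly keep them high. HSP90 has been pursued as a drug target in lung cancer with mutant EGFR.

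The study sequenced mRNA of 3 related human lung cancer lines, with 2 libraries for each line. PC9 is an established lung adenocarcinoma line with an activating EGFR mutation, and PC9-BrM4 is known as a PC9 derivative selected for growth in the brain. PC9-AMG is a further line named after PC9, and the labels do not say what AMG stands for or how it was derived. All 3 lines were grown under ordinary culture conditions with no other treatment named. No label says whether the 2 libraries of a line came from separate cultures or whether a line is 1 clone, so p-values measure the spread between these samples only, which may be technical. Values are TPM, a transcript abundance scaled by transcript length and by the total of the library, so that levels of different genes can be set side by side.

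The tables of the 6 libraries list 13455 to 13764 genes at 1 TPM or more and correspond to 2.66 to 4.39 gigabases of aligned sequence. Epithelial markers (EPCAM, KRT8, KRT18, KRT19 and CDH1) summed to between 7553 and 11198 TPM in every library. Markers of other cells were low. Of 5 fibroblast markers 1 reached 1 TPM, with sums of 3.68 to 15.0 TPM and DCN and LUM at 0 in all 6 libraries. Endothelial markers summed to 2.30 to 6.07 TPM, leukocyte markers to 42.3 to 50.2 TPM, mostly CD68, and astrocyte markers to 17.5 to 28.2 TPM. The summed epithelial, fibroblast, endothelial and astrocyte markers were each highest in both PC9-AMG libraries, and their part in the differences below was not tested. In bulk RNA, fewer cells of a type and less RNA per cell cannot be told apart.

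HSF1 binds inverted repeats of the unit GAA. Windows upstream of annotated start sites of the 10 genes were searched for them, to show which members carry such a repeat there. RefSeq promoter windows (GRCh38.p14) matched all 10 by symbol, with 16 windows of 250 bases upstream of an annotated start. Repeats of 2 units were searched as GAANNTTC and TTCNNGAA, and repeats of 3 units as GAANNTTCNNGAA and TTCNNGAANNTTC, where N is any base. Both strands are covered, and every match of 3 units also holds matches of 2. A repeat of 2 units was present in a window of 8 of the 10 genes and a repeat of 3 units in 4 of them. Among all RefSeq genes with such windows, 14.0% of 27305 held 2 units and 0.557% held 3. The stretches of 30 bases around the matches are given 5′ to 3′ on the strand of the gene, with the matched bases in capitals.
HSP90AA1: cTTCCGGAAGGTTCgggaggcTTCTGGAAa
HSP90AB1, element 1: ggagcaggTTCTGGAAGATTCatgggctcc
HSP90AB1, element 2: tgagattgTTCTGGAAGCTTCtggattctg
HSPA8, element 1: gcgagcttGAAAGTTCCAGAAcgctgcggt
HSPA8, element 2: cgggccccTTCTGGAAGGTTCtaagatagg
HSPA1A: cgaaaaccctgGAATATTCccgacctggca
HSPA1B: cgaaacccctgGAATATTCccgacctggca
DNAJB1, element 1: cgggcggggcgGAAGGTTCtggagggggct
DNAJB1, element 2: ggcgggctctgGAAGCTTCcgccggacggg
HSPB1: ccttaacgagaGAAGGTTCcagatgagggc
HSPD1: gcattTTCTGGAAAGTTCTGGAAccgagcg

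Repeats of 3 units were in HSP90AA1 at chr14:102087104-102087133 (minus strand), in both elements of HSP90AB1 at chr6:44247770-44247799 and chr6:44247823-44247852 (plus), in both elements of HSPA8 at chr11:123062345-123062374 and chr11:123062170-123062199 (minus), and in HSPD1 at chr2:197500061-197500090 (minus). Repeats of 2 units were in HSPA1A at chr6:31815426-31815455 (plus), HSPA1B at chr6:31827622-31827651 (plus), HSPB1 at chr7:76302480-76302509 (plus) and DNAJB1 at chr19:14518456-14518485 and chr19:14518426-14518455 (minus). No match was found in the windows of HSPH1 and HSPE1. The HSPD1 stretch lies outside the HSPE1 window, chr2:197500129-197500378, but inside the HSPE1 model, which overlaps that of HSPD1. The stretches of HSP90AA1, HSPA8 (both elements) and HSPD1 overlap a GENCODE exon of the same gene. Those of HSP90AB1 and DNAJB1 lie inside the gene models given below, in no such exon. A window can thus lie upstream of an annotated start and still be inside the gene. A match describes letters in a window and does not show binding.

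**Figure D1:**
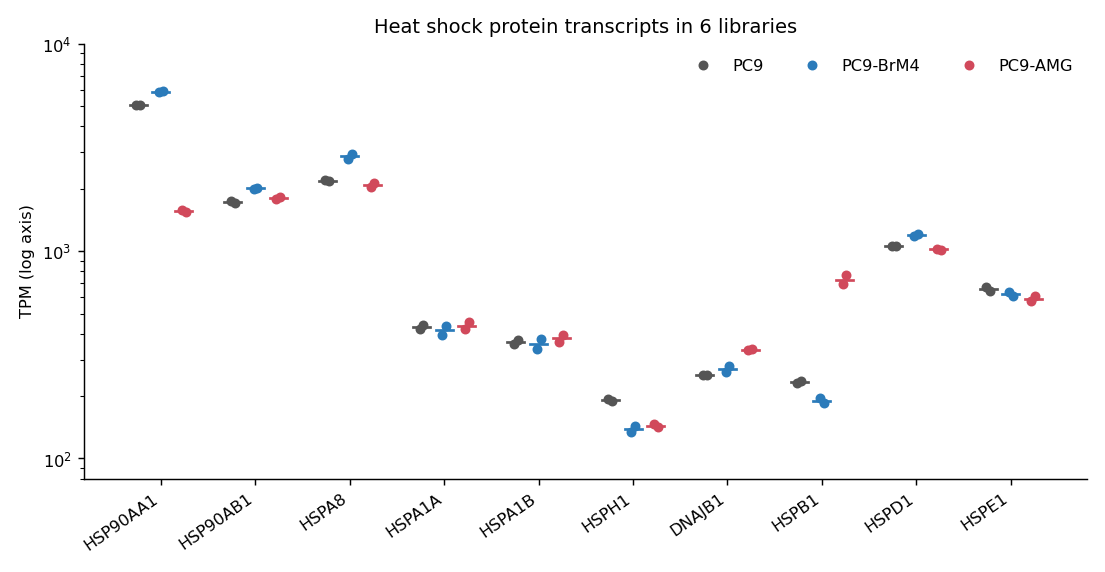
TPM (log axis) of the 10 heat shock protein genes in the 6 libraries, with a point for each library, a short line at the mean of each line, and colours for PC9, PC9-BrM4 and PC9-AMG. HSP90AA1 stands at 1539 and 1585 TPM in PC9-AMG against 5089 to 5955 TPM in the other 4 libraries, and HSPB1 at 692 and 767 TPM against 185 to 236 TPM.

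The heat shock protein genes were among the most abundant transcripts of these cells, and the balance between them differed in PC9-AMG. Together they made up 1.22% of all TPM in PC9 (12197 ± 28.1 TPM, SD, n = 2), 1.40% in PC9-BrM4 (13966 ± 277) and 0.911% in PC9-AMG (9107 ± 172). The lower sum in PC9-AMG rested on HSP90AA1. Without it, the other 9 genes summed to 7101 ± 38.8 TPM in PC9, 8068 ± 196 in PC9-BrM4 and 7545 ± 205 in PC9-AMG. Every member lay at or above the 89.9th percentile of the tested genes in each line.

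In PC9 and PC9-BrM4 the genes followed one order of level, from HSP90AA1 through HSPA8, HSP90AB1, HSPD1, HSPE1, HSPA1A, HSPA1B, DNAJB1 and HSPB1 down to HSPH1. In PC9-AMG the order was HSPA8, HSP90AB1, HSP90AA1, HSPD1, HSPB1, HSPE1, HSPA1A, HSPA1B, DNAJB1 and HSPH1. HSP90AA1 had rank 1 in the other lines and rank 3 in PC9-AMG, and HSPB1 had rank 9 in the other lines and rank 5 in PC9-AMG. In none of the 3 orders did the 2 libraries of a gene overlap those of its neighbour.

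Counted by whether the libraries of 2 lines overlapped, 5 members were higher in PC9-BrM4 than in PC9 in both libraries, 3 were lower and 2 overlapped, where 75.2% of all tested genes did not overlap (37.4% higher, 37.8% lower). Against PC9, PC9-AMG had 3 members higher, 5 lower and 2 overlapping, with 79.8% of tested genes not overlapping (39.6% higher, 40.2% lower). PC9-AMG and PC9-BrM4 differed without overlap in 2 members that were higher and 5 that were lower in PC9-AMG, beside 77.5% of tested genes (38.2% higher, 39.3% lower). The members were chosen with these values known, so nothing is read from these counts. The median difference of the 10 on the log2(TPM + 1) scale was 0.04 for PC9-BrM4 with PC9, -0.02 for PC9-AMG with PC9 and -0.01 for PC9-AMG with PC9-BrM4, against medians of 0.00, -0.01 and -0.01 over all tested genes. The first and second comparison share the PC9 libraries.

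**Figure D2:**
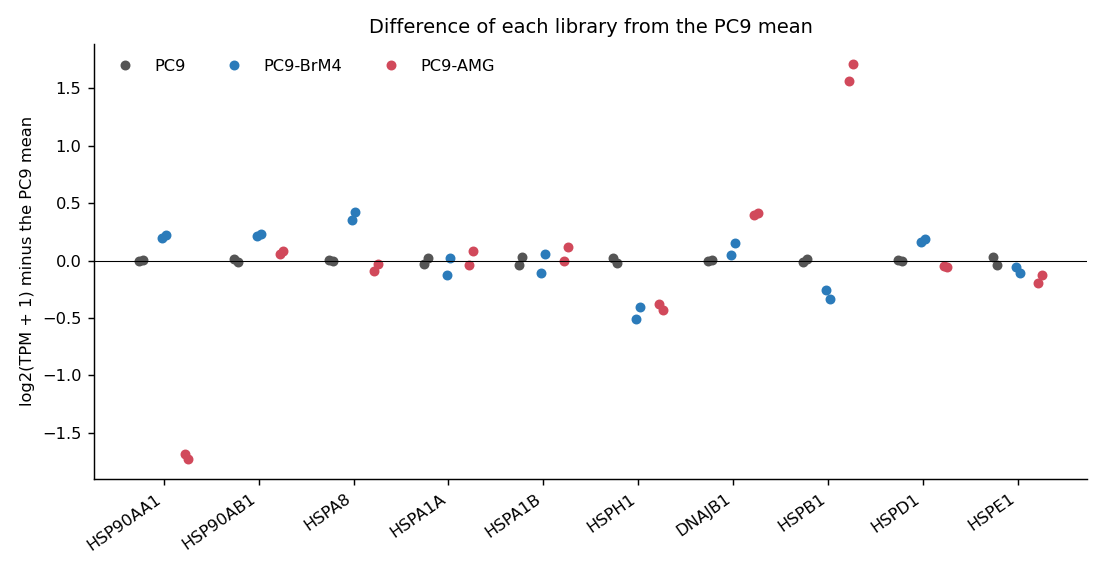
Difference of each library from the mean of the 2 PC9 libraries on the log2(TPM + 1) scale, for the 10 genes, with a point for each library. Only HSP90AA1 (PC9-AMG, mean -1.71) and HSPB1 (PC9-AMG, mean 1.64) lie beyond 1 in either direction, while HSPA1A and HSPA1B stay near 0 in all 6 libraries.

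HSP90AA1 encodes the stress-inducible cytosolic HSP90 and lies at chr14:102080738-102139749 (minus strand, hg38). It stood at 5089 and 5104 TPM in the PC9 libraries, 5841 and 5955 in PC9-BrM4, with 1585 and 1539 in PC9-AMG. Both PC9-AMG libraries lay far below the other 4, and PC9-BrM4 lay above PC9 without overlap. The log2 difference was -1.71 ± 0.02 (SE from the libraries, 3.26-fold lower) for PC9-AMG with PC9, -1.92 ± 0.03 (3.78-fold lower) for PC9-AMG with PC9-BrM4, and 0.21 ± 0.01 for PC9-BrM4 with PC9. Of the 14195 tested genes, 1.60% had a wider range of line means.

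HSP90AB1, the constitutive cytosolic HSP90 (chr6:44246166-44253888, plus strand), did not share that pattern. Its levels were 1740 and 1708 TPM in PC9, 1998 and 2019 in PC9-BrM4, with 1794 and 1828 in PC9-AMG. PC9-BrM4 was the highest line, PC9-AMG lay just above PC9, and no libraries of different lines overlapped. The log2 differences were 0.22 ± 0.02 for PC9-BrM4 with PC9, 0.07 ± 0.02 for PC9-AMG with PC9 and -0.15 ± 0.02 for PC9-AMG with PC9-BrM4.

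The ratio of the 2 cytosolic HSP90 transcripts differed between lines. HSP90AA1 over HSP90AB1 was 2.96 ± 0.04 (SD, n = 2) for PC9, 2.94 ± 0.02 for PC9-BrM4 and 0.863 ± 0.03 for PC9-AMG. HSP90AA1 made up 74.7% of the summed HSP90 transcripts in PC9, 74.6% in PC9-BrM4 and 46.3% in PC9-AMG. Their sum was 6820 ± 11.6 TPM in PC9, 7906 ± 95.9 in PC9-BrM4 and 3373 ± 8.96 in PC9-AMG. Reads of the HSP90AB1 pseudogene HSP90AB4P, the 1 pseudogene model of these genes in the tables, reached at most 2.33 TPM.

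HSPA8 encodes the constitutive cytosolic HSP70 and lies at chr11:123057492-123062335 (minus strand). It was measured at 2198 and 2178 TPM in PC9, 2792 and 2942 in PC9-BrM4, with 2052 and 2142 in PC9-AMG. PC9-BrM4 was the highest line, and PC9-AMG lay slightly below PC9 without overlap. The log2 difference was 0.39 ± 0.04 for PC9-BrM4 with PC9, -0.06 ± 0.03 for PC9-AMG with PC9 and -0.45 ± 0.05 for PC9-AMG with PC9-BrM4. The HSPA8 model holds the small nucleolar RNA models SNORD14C, SNORD14D and SNORD14E on the same strand, which were listed at 3.52 to 20.1 TPM.

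HSPA1A and HSPA1B encode the stress-inducible HSP70 and lie near each other on chromosome 6, at chr6:31815514-31817942 and chr6:31827735-31830254 (both plus). Their longest open reading frames in GENCODE release 29 are identical at 1922 of 1926 bases (99.8%), so reads cannot be assigned to either copy with certainty, and their separate values are uncertain. HSPA1A and HSPA8 are identical at 73.3% of aligned bases. Upstream of the first annotated exon base, the windows chr6:31815293-31815463 and chr6:31827488-31827659 are the same at 164 of 172 aligned positions. Both are printed to show how alike the copies are outside the coding part, with the bases that differ or have no partner in capitals.
HSPA1A: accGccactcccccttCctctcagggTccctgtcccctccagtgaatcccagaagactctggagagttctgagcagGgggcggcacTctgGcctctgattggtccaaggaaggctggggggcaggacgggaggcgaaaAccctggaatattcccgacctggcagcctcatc
HSPA1B: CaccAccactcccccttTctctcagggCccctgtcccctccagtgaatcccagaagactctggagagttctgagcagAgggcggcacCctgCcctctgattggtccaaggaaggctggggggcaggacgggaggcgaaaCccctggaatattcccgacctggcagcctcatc

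The HSPA1A libraries stood at 422 and 438 TPM in PC9, 393 and 438 in PC9-BrM4, with 419 and 455 in PC9-AMG. The HSPA1B libraries stood at 356 and 374, 338 and 379, and 364 and 395 TPM in the same order. All lines overlapped one another for both genes, and the log2 differences lay between -0.05 ± 0.08 and 0.08 ± 0.10. Summed over the copies, which does not depend on how reads were split between them, the level was 795 ± 24.3 TPM in PC9, 774 ± 60.1 in PC9-BrM4 and 817 ± 47.8 in PC9-AMG. Of the tested genes, 97.2% had a wider range of line means than HSPA1A and 96.3% a wider range than HSPA1B. Constitutive HSPA8 over the sum of the 2 inducible copies gave ratios of 2.75 ± 0.10 for PC9, 3.71 ± 0.15 for PC9-BrM4 and 2.57 ± 0.07 for PC9-AMG.

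HSPH1 encodes HSP110 (HSP105), a nucleotide exchange factor of HSP70, and lies at chr13:31134974-31162388 (minus). Its levels were 193 and 188 TPM in PC9, 134 and 144 in PC9-BrM4, with 147 and 141 in PC9-AMG. PC9-BrM4 and PC9-AMG both lay below PC9 without overlap and overlapped each other. The log2 difference from PC9 was -0.46 ± 0.06 in PC9-BrM4 and -0.41 ± 0.03 in PC9-AMG.

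DNAJB1 encodes HSP40, a J-domain protein that starts the HSP70 cycle, and lies at chr19:14514764-14518559 (minus). It stood at 252 and 253 TPM in PC9, 262 and 281 in PC9-BrM4, with 334 and 337 in PC9-AMG. PC9-AMG was the highest line and the 3 lines did not overlap. The log2 difference was 0.41 ± 0.01 for PC9-AMG with PC9, 0.31 ± 0.05 for PC9-AMG with PC9-BrM4, and 0.10 ± 0.05 for PC9-BrM4 with PC9.

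HSPB1 encodes HSP27, a small heat shock protein that binds unfolding proteins and actin, and lies at chr7:76302558-76304297 (plus). Its libraries stood at 230 and 236 TPM in PC9, 195 and 185 in PC9-BrM4, with 692 and 767 in PC9-AMG. Both PC9-AMG libraries lay far above the other 4, and PC9-BrM4 lay below PC9. The log2 difference was 1.64 ± 0.08 (3.13-fold higher) for PC9-AMG with PC9, 1.93 ± 0.08 (3.84-fold higher) for PC9-AMG with PC9-BrM4, and -0.29 ± 0.04 for PC9-BrM4 with PC9. The range of line means was 1.93 on the log2 scale for HSPB1 and 1.92 for HSP90AA1, and these 2 are not ranked: with 1 library left out, the difference of PC9-AMG with PC9-BrM4 spanned 1.86 to 2.01 for HSPB1 and -1.94 to -1.89 for HSP90AA1. Of the tested genes, 1.55% had a wider range than HSPB1. Among the printed stretches, HSPB1 carries a single repeat of 2 units and HSP90AA1 a repeat of 3. A link between these repeats and the levels of the members was not tested.

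HSPD1 and HSPE1 encode HSP60 and HSP10, which form the folding chamber of the mitochondrial matrix. They lie head to head at chr2:197486584-197500274 (minus) and chr2:197499997-197503463 (plus), and their models overlap by 278 bases. HSPD1 stood at 1064 and 1056 TPM in PC9, 1184 and 1210 in PC9-BrM4, with 1024 and 1019 in PC9-AMG. HSPE1 stood at 674 and 643, 634 and 611, and 575 and 605 TPM in the same order. PC9-BrM4 was highest for HSPD1 and PC9 was highest for HSPE1, with PC9-AMG lowest for both and no overlap between lines.

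The log2 differences of this pair stayed within 0.23 in size. For HSPD1 they were 0.18 ± 0.02 for PC9-BrM4 with PC9 and -0.05 ± 0.01 for PC9-AMG with PC9, and for HSPE1 -0.08 ± 0.04 and -0.16 ± 0.05. HSPD1 over HSPE1 was 1.61 ± 0.05 in PC9, 1.92 ± 0.08 in PC9-BrM4 and 1.73 ± 0.07 in PC9-AMG. The readthrough model HSPE1-MOB4, which covers HSPE1 on the same strand, was listed at 0 to 8.08 TPM, at most 1.29% of HSPE1.

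Genes around HSP90AA1 were lower in PC9-AMG too. All 14 other tested genes that start within 1 Mb were below PC9, with a median log2 difference of -0.65, although MOK (-0.00) and CINP (-0.03) were at nearly the same level. Within 2 Mb, 27 of 31 were lower (median -0.85), and within 5 Mb, 34 of 58 (median -0.15). PPP2R5C, a regulatory subunit of protein phosphatase 2A, stood at 211 ± 0.181 TPM in PC9 and 71.5 ± 1.00 in PC9-AMG (log2 fold change -1.55, adjusted p = 1.49e-06). DYNC1H1, the dynein heavy chain, stood at 252 ± 4.74 and 132 ± 8.34 TPM (-0.93, adjusted p = 0.000382), and WDR20 at 49.6 ± 1.17 and 19.7 ± 0.510 TPM (-1.29, adjusted p = 6.96e-06).

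The unbroken run of tested genes that were lower in PC9-AMG reached from DIO3 to C14orf2, chr14:101561351-103921566, a length of 2.36 Mb. Its 27 other genes had a median log2 difference of -1.01, and 14 of them were below -1. On the log2(TPM + 1) scale, HSP90AA1 was the second lowest of the run after TNFAIP2 (-1.85). Its difference minus the median of its neighbours was -1.06 within 1 Mb and -0.85 within 2 Mb. By the TPM means, 2 low genes of the run also fell by larger factors than HSP90AA1. These were DIO3 (0.125 TPM in PC9, 0.0189 in PC9-AMG) and SNORA28 (1.76 and 0.348). DIO3, the first gene of the run, did not pass with limma (-0.14, adjusted p = 0.429). In PC9-BrM4, 13 of the 14 neighbours within 1 Mb were above PC9 (median 0.25), and HSP90AA1 at 0.21 lay close to that median. The run was found by looking at the values and carries no test.

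**Figure D3:**
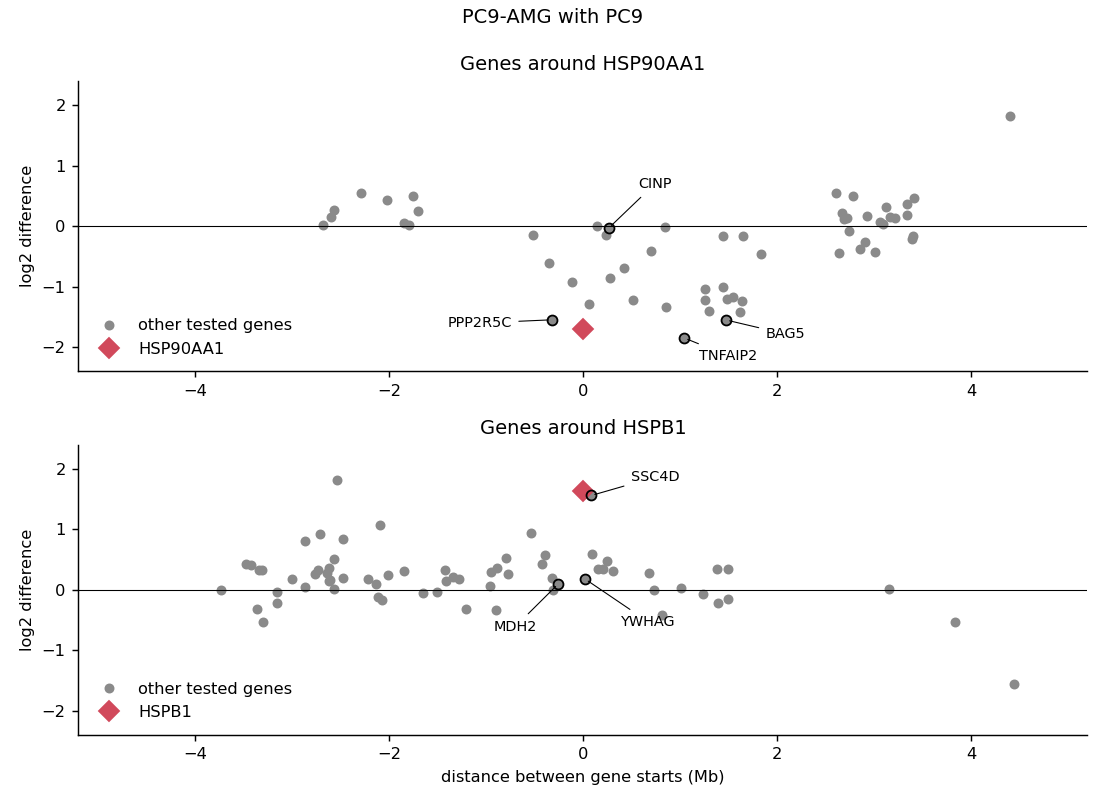
Log2 difference of PC9-AMG with PC9 for tested genes within 5 Mb of HSP90AA1 (top) and HSPB1 (bottom) against the distance between gene starts in Mb, with the heat shock gene as a red diamond and circled genes named. HSP90AA1 (-1.71) lies in a run of lower genes. On the log2(TPM + 1) scale, HSPB1 (1.64), in a run of higher genes, stands above all 22 neighbours within 1 Mb, whose median is 0.30.

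HSPB1 lay in an unbroken run of tested genes that were higher in PC9-AMG, from POM121C to DTX2P1-UPK3BP1-PMS2P11, chr7:75416781-77023759, a length of 1.61 Mb. Its 17 other genes had a median log2 difference of 0.35, and 1 of them, SSC4D, was above 1. On the log2(TPM + 1) scale, HSPB1 was the highest of the run, which was likewise found by looking at the values and carries no test. The 22 tested neighbours of HSPB1 within 1 Mb had a median of 0.30 in PC9-AMG with PC9. Of these, 19 were higher and 3 lower, and none reached the difference of HSPB1 on this scale. The nearest in size was SSC4D, at 2.75 ± 0.357 TPM in PC9 and 10.1 ± 0.942 in PC9-AMG (log2 fold change 1.56, adjusted p = 4.55e-05). The scale understates changes of low genes, and by the TPM means SSC4D rose by a larger factor than HSPB1. YWHAG, a 14-3-3 protein and the nearest gene, had a log2 fold change of 0.18 (adjusted p = 0.0312), and MDH2, the mitochondrial malate dehydrogenase, of 0.10 (adjusted p = 0.0771).

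All 5 tested neighbours of HSPH1 within 1 Mb were lower than in PC9 in both other lines, with medians of -0.42 in PC9-BrM4 and -0.43 in PC9-AMG. HSPH1 lay -0.04 from its neighbours' median within 1 and 2 Mb and -0.14 within 5 Mb in PC9-BrM4, and 0.03 from it with each window in PC9-AMG. DNAJB1 lay within 0.01 of its neighbours' median with each window in PC9-BrM4, and 0.19, 0.36 and 0.46 above it within 1, 2 and 5 Mb in PC9-AMG. The distance of HSPA8 from that median changed with the window. Within 1, 2 and 5 Mb it was 0.05, 0.20 and 0.21 for PC9-BrM4 with PC9, while PC9-AMG with PC9 gave -0.33, -0.05 and -0.20.

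Over the 6 libraries, the tested genes whose levels followed HSPB1 most closely were KCTD2, TRIM28, ALDH1L1, ANKRD1 and GABARAPL1, each with Pearson r of 0.998 on the log2(TPM + 1) scale. GABARAPL1, an autophagy protein, stood at 51.2 ± 1.01 TPM in PC9, 39.3 ± 2.08 in PC9-BrM4 and 178 ± 4.38 in PC9-AMG. ANKRD1, a target of YAP, stood at 20.4 ± 0.0312, 17.8 ± 0.0696 and 69.0 ± 1.83 TPM. ALDH1L1 is also in the list of astrocyte markers. Of 2882 candidate genes, 44 reached r of 0.99 or more, so these 5 are examples. The 6 points fall into 3 lines, and r describes these libraries only. For HSP90AA1, chosen for this after its values were seen, PPP2R5C, DEAF1, MARK3, NQO1 and VIPAS39 were closest. Of the same 2882 candidates, 76 reached r of 0.99 or more, so these 5 are examples too. PPP2R5C, MARK3 and VIPAS39 also lie on chromosome 14. The share of that chromosome among the candidates was not counted, so nothing is read from this.

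The other genes of the chaperone network were taken from 9 lists of 84 genes that are not members, of which 74 passed the filter. They were tested with limma and Benjamini-Hochberg adjustment over all tested genes, at an adjusted p under 0.05. In PC9-BrM4 with PC9, 34 rose and 13 fell (63.5% called, where 46.6% of all tested genes were called, 23.4% up and 23.1% down), with a median log2 fold change of 0.13 against 0.00 for all tested genes. In PC9-AMG with PC9, 28 rose and 19 fell (63.5%, background 55.5%, with 27.8% up and 27.7% down), with medians of 0.09 and -0.01. In PC9-AMG with PC9-BrM4, 22 rose and 29 fell (68.9%, background 56.1%, with 28.1% up and 28.0% down), with medians of -0.08 and -0.01.

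**Figure D4:**
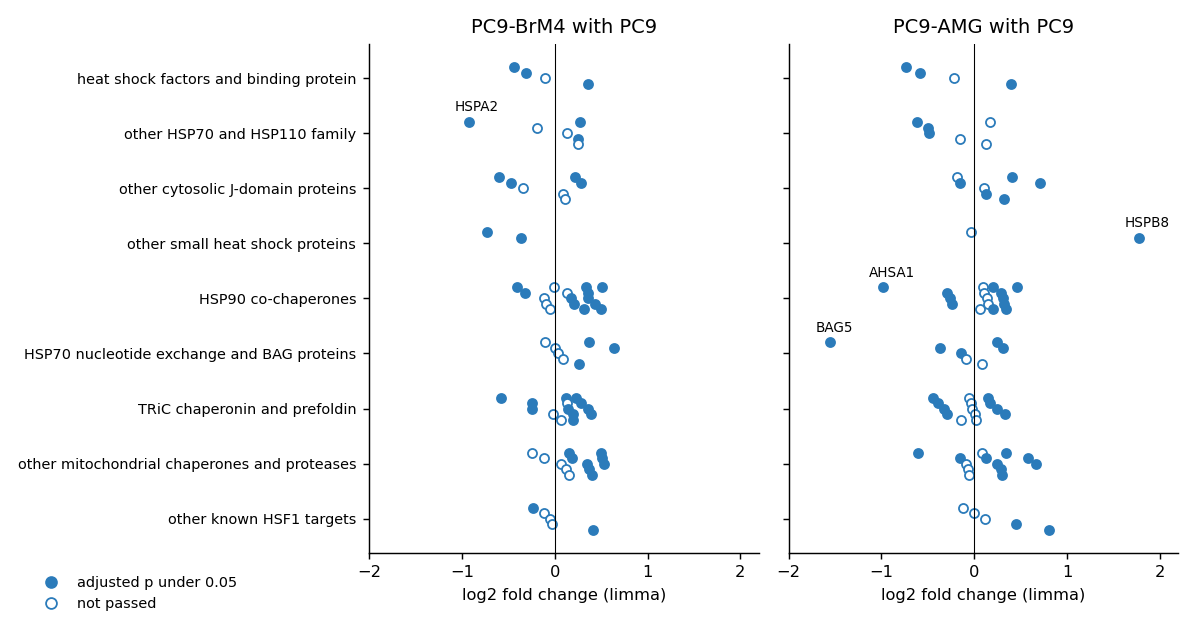
Log2 fold change (limma) of the 74 tested chaperone network genes by list, for PC9-BrM4 with PC9 (left) and PC9-AMG with PC9 (right), with filled circles for an adjusted p under 0.05 and names for genes beyond 0.9 in size. HSPB8 at 1.78, AHSA1 at -0.98 and BAG5 at -1.55 lie apart in PC9-AMG, and HSPA2 at -0.92 in PC9-BrM4.

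Among the heat shock factors, HSF1, the main regulator of these genes, rose in both lines against PC9. It stood at 113 and 112 TPM in PC9, 136 and 153 in PC9-BrM4, with 149 and 148 in PC9-AMG. Its log2 fold change was 0.36 ± 0.06 (adjusted p = 0.00191) in PC9-BrM4 and 0.40 ± 0.06 (adjusted p = 0.000888) in PC9-AMG, and PC9-AMG with PC9-BrM4 did not pass (0.04, adjusted p = 0.572). HSBP1, which binds HSF1 and is described as its inhibitor, fell in both, by 0.31 (adjusted p = 0.00263) and 0.58 (adjusted p = 0.000114). HSF2 did not pass in PC9-BrM4 with PC9 (-0.10, adjusted p = 0.335), PC9-AMG with PC9 (-0.22, adjusted p = 0.0505) or PC9-AMG with PC9-BrM4 (-0.12, adjusted p = 0.252). In 7 of the other settings tried, HSF2 passed in PC9-AMG with PC9, with adjusted p between 0.0299 and 0.0491.

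Of the 8 other HSP70 and HSP110 genes, 6 were tested. In PC9-BrM4 with PC9, 2 rose, 1 fell and 3 did not pass, where 46.6% of all tested genes were called. For PC9-AMG with PC9, 0 rose, 3 fell and 3 did not pass, where 55.5% of all tested genes were called. HSPA2, an HSP70 of the testis, fell from 12.7 ± 0.128 TPM in PC9 to 6.24 ± 0.824 in PC9-BrM4 (-0.92, adjusted p = 0.000273) and 7.96 ± 0.283 in PC9-AMG (-0.61, adjusted p = 0.00139). HSPA14, a ribosome-associated HSP70, rose in PC9-BrM4 (0.28, adjusted p = 0.00278) and fell in PC9-AMG (-0.50, adjusted p = 0.000144). HSPA4, a relative of HSPH1, rose in PC9-BrM4 (0.25, adjusted p = 0.00492) and did not pass in PC9-AMG with PC9 (0.13, adjusted p = 0.0625), where it passed in 3 other settings with adjusted p between 0.0429 and 0.0455. HSPA6, an HSP70 that is nearly silent without stress, was too low to pass the filter and was not tested. The PC9 libraries held 0.340 and 0.422 TPM of it, those of PC9-BrM4 0.431 and 0.559, and those of PC9-AMG 1.10 and 0.889. Both PC9-AMG libraries lay above the other 4 (2.61-fold above PC9 by the means).

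The 7 tested J-domain proteins split in both comparisons against PC9. In PC9-BrM4, 2 were higher and 2 lower (57.1% called, background 46.6%), and in PC9-AMG 4 were higher and 1 lower (71.4%, background 55.5%). DNAJB6, which suppresses aggregation of polyglutamine proteins, rose from 168 ± 1.45 to 275 ± 14.9 TPM in PC9-AMG (0.71, adjusted p = 6.78e-05). DNAJB4 (-0.60, adjusted p = 0.000816) and DNAJB2 (-0.47, adjusted p = 0.000785) fell in PC9-BrM4, and DNAJB2 rose in PC9-AMG with PC9-BrM4 (0.78, adjusted p = 4.34e-05). DNAJA1 rose in PC9-BrM4 (0.21, adjusted p = 0.00315). Its rise in PC9-AMG with PC9 (0.13, adjusted p = 0.0222) was lost in 6 of 15 other settings (adjusted p from 0.0839 to 0.127), among them those without PC9 replicate 1 (adjusted p = 0.114), PC9 replicate 2 (0.103) and PC9-AMG replicate 2 (0.107). The log2 fold change with 1 library left out was 0.10 to 0.16.

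Of 9 other small heat shock proteins 2 were tested. HSPB8, a partner of BAG3 in clearing misfolded proteins, stood at 13.1 and 12.4 TPM in PC9, 7.30 and 7.31 in PC9-BrM4, with 47.5 and 44.8 in PC9-AMG. It rose in PC9-AMG (1.78 ± 0.07, adjusted p = 4.33e-06) and fell in PC9-BrM4 (-0.72 ± 0.07, adjusted p = 0.000176), the same directions as the values of HSPB1. In PC9-AMG with PC9-BrM4 it rose by 2.50 (adjusted p = 5.24e-07). Its 6 neighbours within 1 Mb had a median of 0.01 in PC9-AMG with PC9. CRYAB, the small heat shock protein of lens and muscle, was listed at 0 to 0.560 TPM and was not tested.

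Of 16 HSP90 co-chaperones, 9 rose, 2 fell and 5 did not pass in PC9-BrM4 (68.8% called, background 46.6%), and in PC9-AMG 7 rose, 4 fell and 5 did not pass against PC9 (68.8%, background 55.5%). STIP1, the HOP protein that links HSP70 to HSP90, rose in both, from 501 ± 4.36 TPM in PC9 to 676 ± 22.8 in PC9-BrM4 (0.43, adjusted p = 0.000178) and 579 ± 11.9 in PC9-AMG (0.21, adjusted p = 0.00382). AHSA1, the activator of the HSP90 ATPase, stood at 1132 and 1153 TPM in PC9, 1331 and 1312 in PC9-BrM4, with 565 and 593 in PC9-AMG. It rose in PC9-BrM4 (0.21, adjusted p = 0.00433) and fell in PC9-AMG (-0.98 ± 0.04, adjusted p = 4.76e-06). PTGES3, the p23 co-chaperone, fell in PC9-BrM4 (-0.41, adjusted p = 0.000573) and in PC9-AMG (-0.24, adjusted p = 0.00572).

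Among the remaining co-chaperones, FKBP5, an immunophilin of steroid receptor complexes, rose in PC9-BrM4 (0.51, adjusted p = 0.00132). STUB1, the CHIP ubiquitin ligase, rose in PC9-BrM4 (0.50, adjusted p = 0.000334) and fell in PC9-AMG (-0.26, adjusted p = 0.00544). TTC4, which binds both HSP90 and HSP70, rose in PC9-AMG (0.47, adjusted p = 0.00017).

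AHSA1 lies in a second run of lower genes on chromosome 14. All 16 tested neighbours within 1 Mb were below PC9 in PC9-AMG, with a median of -1.23, and AHSA1 lay 0.25 above it. That run reached from TTLL5 to SPATA7, chr14:75661208-88438461, a length of 12.8 Mb, with 28 other tested genes and a median of -1.12. It was cut by C14orf1 (0.13), and lower genes went on beyond that gene, such as ACYP1 (-1.47). Within 5 Mb of AHSA1, 62 of 66 neighbours were lower and 4 higher (median -0.95). BAG5, an HSP70 exchange factor, lies in the run of HSP90AA1. It stood at 89.6 ± 2.79 TPM in PC9, 108 ± 6.59 in PC9-BrM4 and 29.9 ± 2.00 in PC9-AMG, and fell in PC9-AMG by 1.55 (adjusted p = 5.37e-06), where its 16 neighbours within 1 Mb had a median of -1.19. HSP90AA1, AHSA1 and BAG5, which lie in these 2 runs, had the lowest difference of the members, the HSP90 co-chaperones and the exchange factors in PC9-AMG with PC9.

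The other exchange factors and BAG proteins differed by line. BAG3, a stress-induced partner of HSP70, rose from 89.4 ± 0.335 TPM in PC9 to 140 ± 5.61 in PC9-BrM4 (0.64, adjusted p = 5.11e-05) and 106 ± 0.973 in PC9-AMG (0.24, adjusted p = 0.00304). Of the 7 genes in that list, 3 rose and 0 fell in PC9-BrM4 (42.9% called, background 46.6%). In PC9-AMG, 2 rose and 3 fell (71.4%, background 55.5%).

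The TRiC chaperonin and prefoldin, which fold actin and tubulin, had 8 of 14 genes up and 3 down in PC9-BrM4 against PC9 (78.6% called, background 46.6%). In PC9-AMG, 4 were up and 4 down against PC9 (57.1%, background 55.5%). In PC9-AMG with PC9-BrM4, 3 rose and 9 fell (85.7%, background 56.1%), among them CCT5 (-0.73, adjusted p = 5.06e-06). PFDN5, a prefoldin subunit, fell in PC9-BrM4 (-0.57, adjusted p = 0.000186) and rose in PC9-AMG with PC9-BrM4 (0.43, adjusted p = 0.00046).

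Mitochondrial chaperones and proteases other than HSPD1 and HSPE1 had 8 of 13 genes up and 0 down in PC9-BrM4 (61.5% called, background 46.6%). In PC9-AMG, 7 were up and 2 down (69.2%, background 55.5%). LONP1, a protease of the matrix, rose in both (0.50, adjusted p = 0.000196, and 0.67, adjusted p = 4.55e-05). DNAJA3 rose in PC9-BrM4 (0.50, adjusted p = 9.88e-05), and CLPP, the subunit of another matrix protease, rose in PC9-AMG (0.58, adjusted p = 0.000303). YME1L1, a protease of the inner membrane, fell in PC9-AMG (-0.60, adjusted p = 0.00022) and in PC9-AMG with PC9-BrM4 (-0.73, adjusted p = 7.37e-05). HSPA9, the mitochondrial HSP70, rose in PC9-BrM4 (0.40, adjusted p = 0.000199), and TRAP1, the mitochondrial HSP90, rose there as well (0.53, adjusted p = 7.16e-05).

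In PC9-AMG with PC9 the calls of these last 2 genes were lost in some settings, while the log2 fold change with 1 library left out stayed between 0.09 and 0.15 for HSPA9 and between -0.17 and -0.14 for TRAP1. HSPA9 passed at 0.12 (adjusted p = 0.0297), but not in 6 of 15 other settings (adjusted p from 0.0837 to 0.154), among them those without PC9 replicate 1 (adjusted p = 0.106), PC9 replicate 2 (0.154) and PC9-AMG replicate 1 (0.134). TRAP1 passed at -0.16 (adjusted p = 0.0128), but not in 4 of 15 other settings (adjusted p from 0.0515 to 0.0914), among them those without PC9 replicate 1 (adjusted p = 0.0569), PC9 replicate 2 (0.0914) and PC9-AMG replicate 1 (0.0581).

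Other genes known as HSF1 targets did not all move with HSPB1. Against PC9, of 5 tested, 1 rose and 1 fell in PC9-BrM4 (40.0% called, background 46.6%). In PC9-AMG, 2 rose and 0 fell (40.0%, background 55.5%), so neither share exceeded that of all tested genes. DEDD2 rose from 46.6 ± 5.02 to 82.0 ± 0.979 TPM in PC9-AMG (0.81, adjusted p = 0.000114). SERPINH1, the collagen chaperone HSP47, rose in PC9-BrM4 (0.41, adjusted p = 0.00139) and PC9-AMG (0.45, adjusted p = 0.000685). HSPA5, the HSP70 of the endoplasmic reticulum, did not pass in PC9-BrM4 (-0.01, adjusted p = 0.913) and rose in PC9-AMG (0.46, adjusted p = 0.000583). There 9 of 12 endoplasmic reticulum chaperones rose and 0 fell (75.0% called, background 55.5%).

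The lines PC9-AMG and PC9-BrM4 also differed directly in this network. BAG5 (-1.82, adjusted p = 1.52e-06), AHSA1 (-1.19, adjusted p = 1.16e-06), HSPA14 (-0.78, adjusted p = 1.47e-05), STUB1 (-0.75, adjusted p = 2.91e-05) and TRAP1 (-0.68, adjusted p = 1.18e-05) were lower in PC9-AMG. BAG3 (-0.39, adjusted p = 0.000264), HSPA9 (-0.28, adjusted p = 0.000715) and STIP1 (-0.22, adjusted p = 0.00265) were lower as well. DEDD2 (0.84, adjusted p = 7.26e-05), DNAJB6 (0.62, adjusted p = 9.06e-05) and HSPA5 (0.47, adjusted p = 0.000463) were higher in PC9-AMG. DNAJA1 (-0.08, adjusted p = 0.0979), HSPA4 (-0.12, adjusted p = 0.0639) and SERPINH1 (0.04, adjusted p = 0.596) did not pass, and HSPA4 passed in 2 other settings (adjusted p 0.0339 and 0.0437).

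Immediate early genes, which also respond to how cells are handled before lysis, differed along with HSPB1 and HSPB8. Of 12 genes, 2 rose and 3 fell in PC9-BrM4 (41.7% called, background 46.6%). In PC9-AMG 10 rose and 1 fell (91.7%, background 55.5%), with a median log2 fold change of 0.77. Summed, they stood at 411 and 425 TPM in PC9, 446 and 490 in PC9-BrM4, with 794 and 689 in PC9-AMG. JUN, a subunit of AP-1, stood at 62.1 and 62.5, 50.7 and 60.9, and 142 and 126 TPM. The inducible HSPA1A and HSPA1B overlapped between the same libraries, while HSPA6, which was near the filter of 1 TPM, was higher in both PC9-AMG libraries. The part of this in the differences of the heat shock proteins was not tested.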

How the data were processed

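TRIzol RNA was made into stranded mRNA libraries, per the labels' protocols. HISAT2 2.1.0, StringTie 1.3.4d, bcl2fastq and the hg38 build are named in the submitters' processing notes. For each of the 6 libraries, the authors deposited TPM, FPKM and read coverage per gene model, per the file headers. These are not counts and no counts could be recovered, so no counting error is given. Aligned gigabases were estimated from the ratio of deposited coverage to FPKM. The series-wide table was left out, since its column names could not be tied to sample titles, and the tables used for PC9-AMG carry EMG in their names and were assigned by the sample records.

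TPM of models with one symbol were summed and tested where 1 TPM or more was reached in at least 2 libraries (14195 genes). Network genes were tested with limma 3.58.1 (R 4.3.3) on log2(TPM + 1) with a mean-variance trend, over all 6 libraries with 3 residual degrees of freedom, two-sided, with Benjamini-Hochberg adjustment. Fold changes on this scale understate changes of low genes. The test was tried on simulated data first. Members are given without a test, with differences of mean log2 values and their SE. The members and gene lists were chosen with earlier results of these data known.

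Named network genes are, per comparison, the 6 largest rises and 6 largest falls among genes that passed, reaching a mean of 10 TPM in the higher line with no overlap between libraries, and a fixed set (HSF1, HSF2, HSPA4, HSPA5, HSPA6, HSPA9, BAG3, CRYAB, HSPB8, DNAJA1, STIP1, SERPINH1 and TRAP1). A gene that this rule names is not reported here. For the member with the widest range, the 5 genes of highest Pearson r among those with a range of at least 0.5 and 10 TPM are named. Neighbouring genes were named after their values were seen. The alternatives were pseudocounts of 0.1 and 0.5 TPM, no filter or one of 5 TPM, FPKM, median centring, a fit on the lines compared only, no trend, a replicate block, each library left out, and removal of the regional median.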

Additional observations from a re-analysis of the deposited data

How the results depend on the processing

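Every count of genes past the threshold, over all tested genes and over the chaperone network, stayed within 1.5 times its value in the 15 alternatives tried for each: 37 to 48 network genes in PC9-BrM4 with PC9, 37 to 50 in PC9-AMG with PC9 and 42 to 52 in PC9-AMG with PC9-BrM4. Same-numbered libraries did not deviate together (correlations of -0.07, -0.03 and -0.06 over 14195 genes), so the replicate number marks no pairing, and no label gives one. With the replicate number as a block, 6126, 7457 and 7599 of all tested genes passed in place of 6608, 7882 and 7962, and 45, 47 and 52 network genes in place of 47, 47 and 51. The log2 differences themselves are the same with the block, and of the named genes HSF2 alone changed its call (PC9-AMG with PC9, adjusted p = 0.0299). The median difference of the 10 members, which lies near 0, depended on single libraries and on the region. For PC9-BrM4 with PC9 it ranged from -0.0017 to 0.103 with 1 library left out and was -0.059 with the regional median within 5 Mb removed. For PC9-AMG with PC9 the range was -0.043 to 0.026 and the regional value -0.061, and for PC9-AMG with PC9-BrM4 the range was -0.050 to 0.00086 and the regional value 0.053. Over the members' own differences, 466 of 549 alternative values stayed within the spread of the libraries, 69 moved further, and 14 reversed a difference whose libraries did not overlap. These 14 came from removing the regional median. HSPA1A and HSPA1B, whose libraries overlapped, changed sign near 0 in 13 further values, 7 with 1 library left out (-0.037 to 0.054) and 6 with the regional median removed in PC9-AMG with PC9 (-0.13 to -0.044). The 1 and 2 Mb windows were added after seeing the data, since the run of lower genes around HSP90AA1 is shorter than 5 Mb. With windows of 5, 1 and 2 Mb, HSP90AA1 in PC9-BrM4 with PC9 became -0.057, -0.039 and -0.059. In PC9-AMG with PC9, HSP90AB1 became -0.079, -0.24 and -0.14, HSPH1 0.028, 0.029 and 0.028, and HSPD1 0.025, 0.072 and 0.086. HSPE1 in PC9-AMG with PC9-BrM4 became 0.022 and 0.063 with 1 and 2 Mb. Among network genes, AHSA1 in PC9-AMG with PC9 became 0.25 and 0.14 with 1 and 2 Mb, and 0.054 with 1 Mb in PC9-AMG with PC9-BrM4. With 5 Mb, PTGES3 in PC9-BrM4 with PC9 became 0.097, YME1L1 and HSPA14 in PC9-AMG with PC9 0.017 and 0.042, and PFDN5 in PC9-AMG with PC9-BrM4 -0.0085. In PC9-AMG with PC9-BrM4, which neither gene passed, HSF1 ranged from -0.040 (without PC9-BrM4 replicate 1) to 0.12 with 1 library left out. SERPINH1 ranged from -0.029 (without PC9-BrM4 replicate 1) to 0.11, and was -0.022 without PC9-AMG replicate 2. Some differences kept their sign but shrank over all alternatives, which include removal of the regional median. CCT5 in PC9-AMG with PC9-BrM4 was as small as -0.14, against -0.73 to -0.72 with 1 library left out. Against PC9, HSF1 was as small as 0.19 in PC9-BrM4 and 0.21 in PC9-AMG, and DEDD2 0.42 in PC9-AMG. HSPB8 in PC9-AMG with PC9 stayed between 1.67 and 1.85. HSP90AA1 and HSPB1 in PC9-AMG kept their direction in every alternative. With 2 libraries a line, small differences of abundant genes rest on very few values.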
